A study of Caenorhabditis elegans with 12 samples.

Results

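The pqn and abu genes of Caenorhabditis elegans were followed through RNA immunoprecipitations (IPs) of 3 Y-box proteins. The genes were taken by symbol: every gene named pqn or abu with a number, and pqe-1. The deposited counts cover 20182 genes, of which 71 matched, namely 56 pqn genes, 14 abu genes and pqe-1. RNA was isolated from whole young adults of 3 transgenic strains, called CEY1, CEY2 and CEY4. The CEY1 strain (rrrSi300) expresses FLAG-tagged cey-1 from the cey-1 promoter, the CEY2 strain (rrrSi233) FLAG-tagged cey-2 from the cey-2 promoter, and the CEY4 strain (rrrSi307) FLAG-tagged cey-4 from the dpy-30 promoter. All 3 transgenes sit on the same linkage group and also carry the gene's own 3' end, an operon linker with PEST:GFPH2B, the tbb-2 3' end and unc-119(+). Whether the untagged gene is still present is not stated in the labels. From each strain 2 libraries came from FLAG IPs and 2 from MYC IPs, the controls, which makes 12 libraries in 6 groups. The labels do not say whether replicates were separate cultures, so the p-values measure the spread between these libraries, which may be technical.

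The pqn genes are named for prion-like proteins rich in glutamine and asparagine, and the name says nothing about where a gene is used. The abu genes ("activated in blocked unfolded protein response") encode cysteine- and glutamine-rich secreted proteins, and together with a group of pqn paralogs they are known from the cuticle that lines the pharynx. Other pqn genes encode intracellular proteins: PQN-59 is the worm counterpart of the stress granule protein UBAP2L, PQN-41 acts in the death of the linker cell, and PQE-1 protects neurons from polyglutamine toxicity. Y-box proteins bind mRNAs in the cytoplasm. CEY-1 and CEY-4 are known as broadly expressed and CEY-2 as a germline protein.

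The members were split by a list of names written from memory: all 14 abu genes and those of 17 pqn names, known as paralogs of the pharyngeal cuticle, that were found among the members (27 members in all, called the pharyngeal cuticle list), against the other 44. The tissue of each gene was not checked, and the other members may hold further pharynx genes. Of the 71 members 58 passed the filter on low counts, 19 of the cuticle list and 39 of the others. The 13 that did not pass were abu-1, abu-2, abu-4, abu-5, abu-9, pqn-2, pqn-16, pqn-57, pqn-76, pqn-78, pqn-79, pqn-90 and pqn-91. Among them abu-1 had 16 counts over all 12 libraries and at most 6 in any of them. Exactly 0 counts in every library were listed for 8 members: abu-5, abu-9, pqn-57, pqn-76, pqn-78, pqn-79, pqn-90 and pqn-91. Of these 8, 7 lie directly next to another member in the gene order of the RefSeq assembly WBcel235, in the runs abu-5, pqn-78 and pqn-79, then pqn-90 and pqn-91, then pqn-57 and abu-9. A count of 0 for such neighbours can mean no RNA or reads that matched several copies and were not counted, and the table does not tell these apart. The neighbours abu-6, abu-7 and abu-15 did have counts, 521 over the 12 libraries, but whether reads shared between them were counted is not known, and their values are uncertain. Paralogs that are not neighbours may share reads too, which was not checked, so members may not be independent of each other.

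Total counts ran from 22915137 to 33529549 in the FLAG libraries and from 3353523 to 12802412 in the MYC libraries. Levels are given in CPM, the counts in a library divided by its total and by a scaling factor (TMM) that sets most genes equal between libraries, and enrichment is the log2 fold change of FLAG over MYC. TMM factors were 0.548 to 0.640 for FLAG and 1.51 to 2.13 for MYC libraries. Scaling to total counts in place of TMM moves the median of all genes by −1.49 with CEY1, −1.71 with CEY2 and −1.41 with CEY4, so directions are relative to the scale. Calls are those with p under 0.05 in edgeR's quasi-likelihood test after Benjamini-Hochberg adjustment over the 15194 genes tested.

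As a share of all counts, which needs no scaling factor, the members took more of every FLAG library than of every MYC library. With CEY1 they made up 1.91% and 1.90% of the counts in the FLAG libraries and 0.623% and 0.551% in the MYC libraries. With CEY2 the shares were 1.51% and 1.49% against 0.733% and 0.763%. With CEY4 they were 1.33% and 1.34% against 0.621% and 0.631%. The FLAG and MYC libraries did not overlap in any strain. A few members carry these sums: pqn-20 alone held 0.636% and 0.630% of the counts in the CEY1 FLAG libraries and 0.0583% and 0.0438% in their controls.

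Gene by gene, members rose in the CEY1 and CEY4 FLAG IPs and were split with CEY2. With CEY1 46 of the 58 members rose and 4 fell (background over all tested genes 32.3% higher and 34.4% lower), with a median of 2.23 against −0.26 over all genes. With CEY4 43 were higher and 6 lower (background 31.5% and 37%), with a median of 1.52 against −0.35. With CEY2 20 were higher and 12 lower (background 34.9% and 34.1%), with a median of 0.11 against −0.41, and the share that was higher is close to the background. Members with low controls passed the filter through their FLAG libraries. The same counts were also made for the 33 members whose mean log level over all 12 libraries was at least 5 CPM. They were 31 higher and 1 lower with CEY1, 19 and 7 with CEY2, and 29 and 1 with CEY4. That mean includes the FLAG libraries, so the cut does not remove this selection. No background was computed at this cut. With total-count scaling the 58 members gave 38 higher and 10 lower with CEY1 (background 10.8% and 71.4%), 11 and 40 with CEY2 (background 13.2% and 71.7%), and 25 and 20 with CEY4 (background 9.25% and 79.7%). In all 3 strains 18 members were called higher, 16 of the 39 other members and 2 of the 19 on the cuticle list. The share of all genes called higher in all 3 strains was not computed. The gene pqn-24, named here for this after its values were seen, was called lower in all 3 (−1.16 ± 0.32, −1.87 ± 0.29 and −2.25 ± 0.28), but not with CEY1 once CEY1 MYC replicate 2 was left out.

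**Figure D1:**
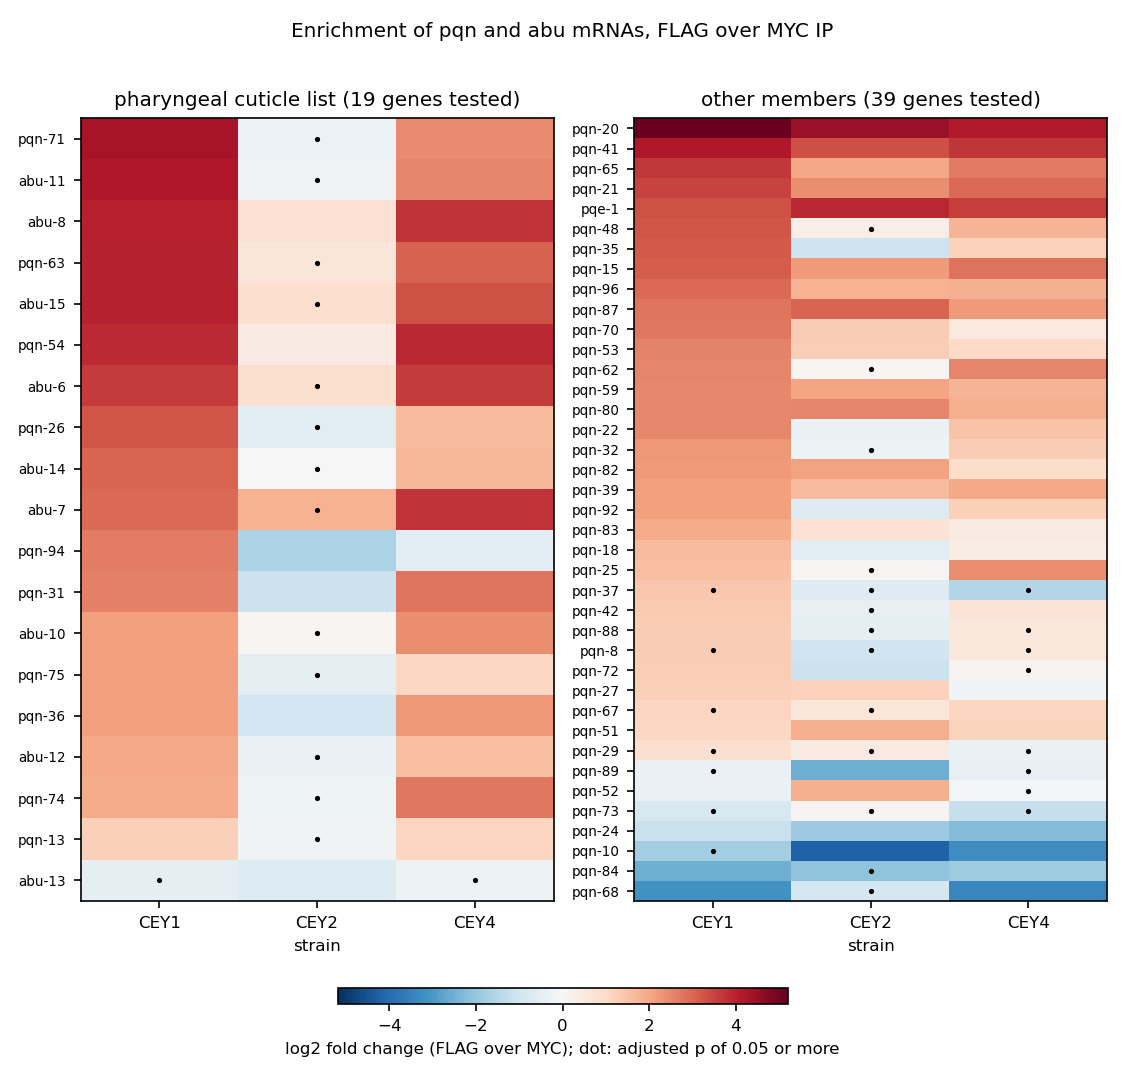
Log2 fold change of FLAG over MYC for the 58 tested members in the 3 strains, with the pharyngeal cuticle list on the left and the other members on the right, each ordered by the CEY1 value. Dots mark values that were not called. The left panel is red with CEY1 and CEY4 except for abu-13 and, with CEY4, pqn-94, and mostly pale with CEY2, while pqn-20 is dark red in all 3 strains.

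Among the other members pqn-20 was the most enriched in each strain. It stood at 11611 and 11308 CPM in the CEY1 FLAG libraries and at 384 and 277 CPM in the MYC libraries. With CEY2 it stood at 5558 and 5469 CPM against 256 and 236 CPM, and with CEY4 at 5966 and 6156 CPM against 344 and 346 CPM. Every FLAG library lay far above every MYC library, and the CEY1 FLAG libraries lay above those of the other strains. The log2 fold changes were 5.13 ± 0.08 (SE), 4.49 ± 0.08 and 4.13 ± 0.08 (edgeR adjusted p = 1.64e-37, 8.44e-37 and 7.97e-36), which rank 11, 10 and 4 among the enrichments of all 15194 genes. With total-count scaling they keep their direction and call.

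The linker cell death gene pqn-41 was also most enriched with CEY1, at a lower enrichment than pqn-20 and with CEY4 ahead of CEY2. Its levels were 695 and 672 CPM against 44.4 and 34.0 CPM with CEY1, 432 and 448 CPM against 43.8 and 43.1 CPM with CEY2, and 537 and 555 CPM against 40.3 and 42.9 CPM with CEY4. The controls overlap between strains, and the FLAG libraries are highest with CEY1 and lowest with CEY2. Its log2 fold changes were 4.15 ± 0.08, 3.34 ± 0.08 and 3.71 ± 0.07 (edgeR adjusted p = 7.69e-36, 5.49e-33 and 2.42e-35).

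For pqe-1, the polyglutamine toxicity suppressor, the order of the enrichments was the reverse of that of pqn-41. It stood at 2939 and 2683 CPM against 306 and 270 CPM with CEY1, at 3617 and 3661 CPM against 233 and 246 CPM with CEY2, and at 3696 and 3762 CPM against 321 and 296 CPM with CEY4. The CEY1 FLAG libraries were the lowest of the 3 pairs. Its log2 fold changes were 3.29 ± 0.06, 3.92 ± 0.06 and 3.60 ± 0.06. The CEY1 enrichment was smaller than that of CEY2 by 0.63 (difference −0.63 ± 0.08, edgeR adjusted p = 9.95e-09).

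The UBAP2L counterpart pqn-59 had 5688 and 5858 CPM against 1093 and 944 CPM with CEY1, 4692 and 4563 CPM against 1099 and 1130 CPM with CEY2, and 3822 and 3841 CPM against 1119 and 1126 CPM with CEY4. The controls of all strains lay between 944 and 1130 CPM, while the FLAG libraries fell into 3 separate pairs. The log2 fold changes were 2.50 ± 0.05, 2.05 ± 0.05 and 1.77 ± 0.05, all called. The genes pqn-87 and pqn-80 were among the 5 most enriched members with CEY2, where pqn-87 stood at 6274 and 6049 CPM against 739.9 and 777 CPM (3.02 ± 0.06) and pqn-80 at 451 and 427 CPM against 72.0 and 79.5 CPM (2.53 ± 0.07). Their CEY1 values were 2.78 ± 0.06 and 2.50 ± 0.07, and those with CEY4 2.20 ± 0.06 and 1.90 ± 0.07.

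**Figure D2:**
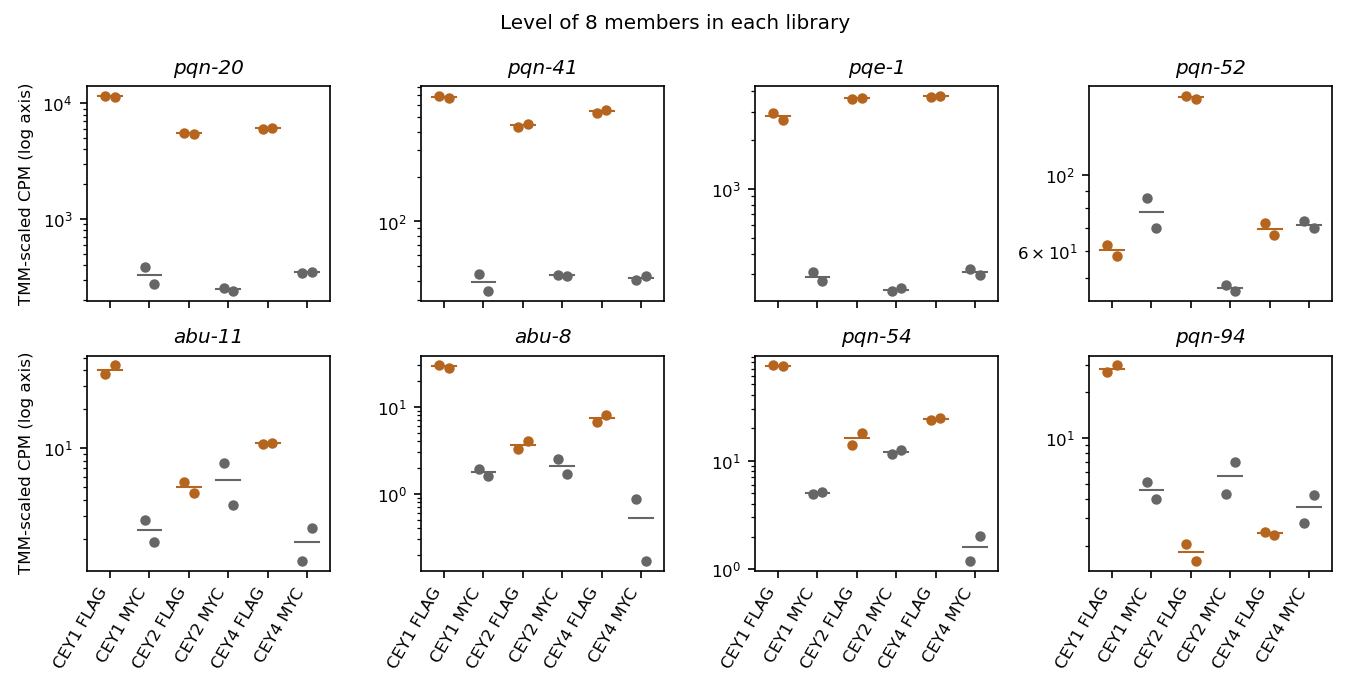
TMM-scaled CPM (log axis) of 8 members in each library, FLAG IPs in brown and MYC IPs in grey, with a line at the mean of each pair. The FLAG points of pqn-20, pqn-41 and pqe-1 lie above the MYC points in all 3 strains, those of pqn-52 only with CEY2, and those of abu-11 with CEY1 and CEY4.

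Not all of the other members were enriched. The gene pqn-52 was the opposite of most: it stood at 62.3 and 57.8 CPM against 85.5 and 69.8 CPM with CEY1, at 171 and 168 CPM against 47.5 and 45.5 CPM with CEY2, and at 72.5 and 66.5 CPM against 73.1 and 70.02 CPM with CEY4. It was the one member with at least 10 CPM called lower with CEY1 (−0.36 ± 0.08, edgeR adjusted p = 0.000313), was called higher with CEY2 (1.86 ± 0.09, but 0.13 and not called with total-count scaling), and had −0.04 ± 0.08 with CEY4 (adjusted p = 0.633, but −1.46 and called lower with total-count scaling). Lower values came from members at a few CPM, among them pqn-68, named after its values were seen. It stood at 0.958 and 0.470 CPM against 5.87 and 7.11 CPM with CEY1 (−3.14 ± 0.35) and at 0.586 and 0.539 CPM against 6.38 and 5.46 CPM with CEY4 (−3.38 ± 0.34). With CEY2 the 5 largest decreases at 10 CPM or more were those of pqn-89 (−2.52 ± 0.21), pqn-72 (−1.11 ± 0.20), pqn-92 (−0.68 ± 0.15), pqn-18 (−0.59 ± 0.13) and, on the cuticle list, abu-13 (−0.70 ± 0.19). Of these, pqn-72, pqn-92 and pqn-18 were called higher with CEY1 (1.28 ± 0.17, 2.11 ± 0.12 and 1.64 ± 0.12). With total-count scaling the CEY1 calls of pqn-72 (−0.21, adjusted p = 0.278) and pqn-18 (0.15, adjusted p = 0.249) were lost. With CEY4, pqn-27 stood at 73.0 and 70.5 CPM against 86.7 and 82.2 CPM (−0.24 ± 0.07, edgeR adjusted p = 0.00315), but it was higher with CEY1 (1.25 ± 0.07) and CEY2 (1.20 ± 0.08). The pqn-27 call with CEY4 was lost without CEY4 FLAG replicate 2 (−0.21, adjusted p = 0.0528), and its CEY1 and CEY2 values turn to −0.25 and −0.53 with total-count scaling. For abu-13 the CEY2 call was lost without CEY2 MYC replicate 2 (−0.53, adjusted p = 0.0529).

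The pharyngeal cuticle list rose in the CEY1 and CEY4 FLAG IPs and hardly at all with CEY2. Of its 19 tested members 18 rose and 0 fell with CEY1 (median 2.93), 17 and 1 with CEY4 (median 2.44), and 2 and 4 with CEY2 (median −0.19), against a background over all genes of 32.3% and 34.4%, 31.5% and 37%, and 34.9% and 34.1%. With total-count scaling these were 17 and 1 (median 1.45), 11 and 2 (median 1.04), and 0 and 16 (median −1.91), against a background of 10.8% and 71.4%, 9.25% and 79.7%, and 13.2% and 71.7%, so that the share of the list that was lower with CEY2 is near that of all genes. As a share of all counts the list made up 0.0205% and 0.0216% of the CEY1 FLAG libraries against 0.00891% and 0.00810% of their controls, 0.00942% and 0.00962% against 0.00436% and 0.00513% with CEY4, and 0.00573% and 0.00573% against 0.0218% and 0.0225% with CEY2. Among the 39 other members 28 rose and 4 fell with CEY1 (median 2.11), 26 and 5 with CEY4 (median 1.10), and 18 and 8 with CEY2 (median 0.47). For these the total-count values were 21 and 9 (median 0.62), 14 and 18 (median −0.31), and 11 and 24 (median −1.25). CEY2 gave the smallest of the 3 enrichments for 19 of 19 members of the list and for 21 of 39 others. Of the list, 13 members were called higher with CEY1 and CEY4 and not called with CEY2, a pattern shown by 5 of the others. The shares of all genes with these patterns were not computed. A smallest value with CEY2 is not particular to the list. Of 10 body wall muscle markers, the CEY2 enrichment was called smaller than that of CEY1 for 10 and smaller than that of CEY4 for 10. These are counts on groups written from memory, and no test compared the 2 groups. Only 7 members of the list had a mean log level of at least 5 CPM over the 12 libraries, FLAG libraries included. Of these, 7 were higher and 0 lower with CEY1, 7 and 0 with CEY4, and 1 and 2 with CEY2.

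The cuticle paralog abu-11 stood at 37.2 and 43.5 CPM in the CEY1 FLAG libraries and at 2.79 and 1.90 CPM in their controls. With CEY4 it stood at 10.8 and 10.9 CPM against 1.35 and 2.42 CPM. With CEY2 it stood at 5.53 and 4.52 CPM against 7.64 and 3.64 CPM, so that FLAG and MYC libraries overlapped. The log2 fold changes were 4.15 ± 0.23 with CEY1 and 2.54 ± 0.22 with CEY4 (edgeR adjusted p = 6.1e-20 and 3.24e-13), and −0.19 ± 0.25 with CEY2 (adjusted p = 0.505). The CEY2 value turned to 0.48 (adjusted p = 0.21) without CEY2 MYC replicate 1, and abu-11 was called lower there with total-count scaling (−1.91).

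Its paralog abu-8 stood at 30.01 and 28.3 CPM against 1.96 and 1.61 CPM with CEY1 and at 6.74 and 8.09 CPM against 0.882 and 0.169 CPM with CEY4. With CEY2 it stood at 3.25 and 4.01 CPM against 2.50 and 1.68 CPM. Its log2 fold changes were 4.05 ± 0.25, 3.76 ± 0.30 and, with CEY2, 0.79 ± 0.32 (edgeR adjusted p = 0.0279). The CEY2 call was lost without CEY2 FLAG replicate 2 (0.64, adjusted p = 0.133) or CEY2 MYC replicate 2 (0.56, adjusted p = 0.229), and the value turned to −0.93 with total-count scaling.

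The paralog pqn-54 rose in both the CEY1 and the CEY4 FLAG IP by about the same fold, although its levels differed. It stood at 74.8 and 73.3 CPM against 4.89 and 5.12 CPM with CEY1 and at 23.7 and 24.4 CPM against 1.19 and 2.03 CPM with CEY4 (3.88 ± 0.15 and 3.91 ± 0.18). With CEY2 it stood at 14.0 and 18.1 CPM against 11.6 and 12.6 CPM (0.41 ± 0.15, edgeR adjusted p = 0.0158). The latter was not called without CEY2 FLAG replicate 2 (0.23, adjusted p = 0.269) or CEY2 MYC replicate 1 (0.38, adjusted p = 0.0913), and was −1.31 with total-count scaling. For pqn-63 the log2 fold changes were 4.01 ± 0.26 with CEY1, 3.05 ± 0.22 with CEY4 and 0.62 ± 0.30 with CEY2 (adjusted p = 0.0608). The CEY2 value of pqn-63 was called higher without the filter (0.71, adjusted p = 0.0418) and without CEY2 FLAG replicate 2 (0.82, adjusted p = 0.031), and was −1.10 and called lower with total-count scaling.

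Among the members of the list with the highest control levels, abu-14 stood at 45.8 and 45.4 CPM against 5.73 and 5.50 CPM with CEY1 (3.03 ± 0.15). With CEY4 it stood at 8.96 and 8.27 CPM against 2.70 and 2.48 CPM (1.73 ± 0.17, 0.32 and not called with total-count scaling). With CEY2 all 4 of its libraries lay between 13.1 and 13.6 CPM (0.01 ± 0.14, edgeR adjusted p = 0.934), a value that became −0.33 (adjusted p = 0.0417) with DESeq2 size factors and −1.71 with total-count scaling. The gene pqn-74 stood at 37.1 and 39.3 CPM against 10.9 and 9.58 CPM with CEY1 (1.91 ± 0.13) and at 36.3 and 36.7 CPM against 5.60 and 5.35 CPM with CEY4 (2.73 ± 0.12). With CEY2 it stood at 11.7 and 11.5 CPM against 12.9 and 14.4 CPM (−0.23 ± 0.14, adjusted p = 0.142), but pqn-74 was called lower there with DESeq2 size factors (−0.57, adjusted p = 0.000539), by DESeq2's test (−0.57, adjusted p = 0.00215) and with total-count scaling (−1.96).

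The neighbours abu-6 and abu-7 had counts near the floor in the controls. With CEY1 abu-6 had 41 and 41 counts in the FLAG libraries against 1 and 3 in the MYC libraries, and abu-7 had 58 and 65 against 4 and 6. With CEY4 the 26 FLAG counts of abu-6 stood against 2 MYC counts, a ratio of 14.3 (95% exact interval 3.57 to 124, covering counting error only). With CEY2 the 20 FLAG counts of abu-7 stood against 2 MYC counts, a ratio of 3.69 (0.897 to 32.6), and the 5 FLAG counts of abu-6 against 1, a ratio of 1.85 (0.207 to 87.3). These CEY2 intervals include a ratio of 1. The ratios are on the TMM scale and were not computed with total-count scaling. The log2 fold change of abu-7 with CEY2 was 1.82. It became 5.93 without CEY2 MYC replicate 2, where the control left had 0 counts.

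In the CEY4 strain pqn-94 and abu-13 were the members of the list not called higher. The gene pqn-94 had 26.9 and 29.7 CPM against 5.17 and 3.98 CPM with CEY1 (2.65 ± 0.20), but 2.46 and 2.34 CPM against 2.80 and 4.28 CPM with CEY4 and 2.06 and 1.59 CPM against 4.35 and 7.002 CPM with CEY2. Only the CEY1 FLAG libraries lay above their controls. The values were −0.55 ± 0.25 with CEY4 (edgeR adjusted p = 0.047) and −1.64 ± 0.28 with CEY2. The CEY4 call was lost without either CEY4 FLAG replicate (adjusted p = 0.111 and 0.154), without CEY4 MYC replicate 2 (−0.21, adjusted p = 0.536) and without either CEY1 FLAG replicate (0.0603 and 0.0598). The gene pqn-31 stood at 30.8 and 32.8 CPM with CEY1 and at 30.2 and 31.2 CPM with CEY4 in the FLAG libraries, against 1.95 and 1.49 CPM with CEY2. Its controls lay between 3.29 and 6.28 CPM in all strains, and its log2 fold changes were 2.60 ± 0.17, 2.77 ± 0.14 and −1.13 ± 0.28.

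**Figure D3:**
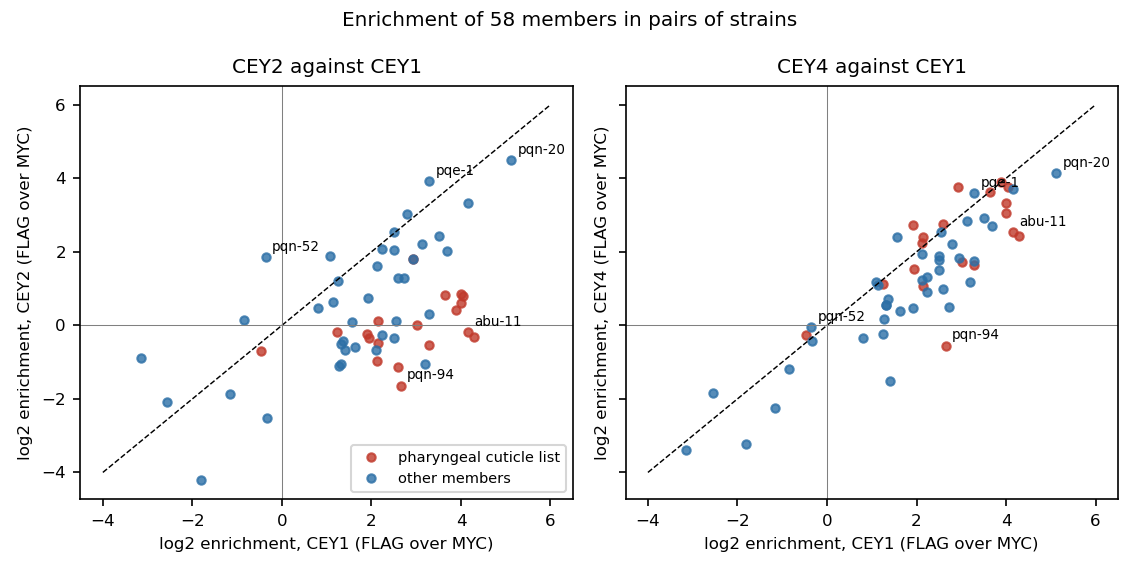
Log2 enrichment of the 58 tested members with CEY2 (left) and CEY4 (right) against that with CEY1, with the line of equal values dashed, the pharyngeal cuticle list in red and the other members in blue. On the left every red point lies under the dashed line, while pqe-1 and pqn-52 lie above it.

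Whether enrichment differed between strains was tested directly with the interaction of strain and antibody. Relative to CEY2, the CEY1 enrichment was larger for 37 of the 58 members and smaller for 5 (background 18.4% and 31.4%), with a median difference of 1.81 against −0.23 over all genes. The list of cuticle paralogs gave 15 larger and 0 smaller of 19 and the other members 22 and 5 of 39. Among members that reached 10 CPM the largest differences were those of abu-11 (4.33 ± 0.37), pqn-94 (4.29 ± 0.35) and pqn-35 (4.25 ± 0.36). Of the same members, in the other direction stood pqn-52 (−2.22 ± 0.12), pqn-51 (−0.81 ± 0.10) and pqe-1 (−0.63 ± 0.08). Relative to CEY4, the CEY2 enrichment was larger for 12 members and smaller for 30 (background 32.3% and 14.7%), with 0 larger and 15 smaller on the cuticle list. At 10 CPM or more the extremes were pqn-52 (1.90 ± 0.12), pqn-27 (1.44 ± 0.10) and pqn-82 (1.16 ± 0.19), and on the other side pqn-31 (−3.89 ± 0.34), pqn-54 (−3.49 ± 0.25) and pqn-36 (−3.22 ± 0.31). For pqn-35 the CEY1 FLAG libraries stood at 23.7 and 21.6 CPM, while all other libraries lay between 1.92 and 6.19 CPM. For pqn-51 the FLAG libraries of CEY2, at 248 and 259 CPM, were the highest, against 182 and 179 CPM with CEY1 and 214 and 206 CPM with CEY4. With total-count scaling the CEY1 enrichment was larger than that of CEY2 for 39 members and smaller for 4 (background 22.7% and 27.2%), and the CEY2 enrichment larger than that of CEY4 for 8 and smaller for 32 (background 26% and 21%).

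Between CEY1 and CEY4 the differences were smaller and lay mostly with the other members. The CEY1 enrichment was larger for 28 members and smaller for 4 (background 18.1% and 18.6%, median 0.71 against −0.0038 over all genes), of which the cuticle list held 5 and 1 (median 0.29) and the other members 23 and 3 (median 0.78). Among members that reached 10 CPM the largest were pqn-94 (3.20 ± 0.32), pqn-70 (2.24 ± 0.09) and pqn-35 (2.00 ± 0.34). The gene pqn-70 stood at 695 and 671 CPM in the CEY1 FLAG libraries and at 167 and 177 CPM in those of CEY4, while its controls ranged from 97.8 to 126 CPM in these strains. Of the same members, those smaller with CEY1 included pqn-25 (−0.84 ± 0.34, edgeR adjusted p = 0.0462), pqn-74 (−0.82 ± 0.19) and pqn-52 (−0.31 ± 0.11, adjusted p = 0.0275), beside pqe-1 (−0.31 ± 0.08). With total-count scaling 25 were larger and 4 smaller (background 16.5% and 21.3%). The pqn-25 call was lost without any of 7 libraries, most of all without CEY1 MYC replicate 2 (−0.28, adjusted p = 0.731). The pqn-52 call was lost without CEY1 FLAG replicate 2, CEY1 MYC replicate 1, CEY4 FLAG replicate 1 or CEY4 MYC replicate 2 (adjusted p from 0.0596 to 0.225).

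The controls of the 3 strains were not alike for these genes. Summed over the 27 members of the cuticle list, the level in the MYC libraries was 58.7 and 51.2 CPM with CEY1, 103 and 106 CPM with CEY2, and 29.0 and 33.7 CPM with CEY4. In the FLAG libraries it was 375 and 388 CPM with CEY1, 89.8 and 89.6 CPM with CEY2, and 165 and 169.9 CPM with CEY4. The CEY2 controls were the highest of the controls and the CEY2 FLAG libraries the lowest of the FLAG libraries. Between the controls, 13 of the 19 tested members were higher with CEY2 than with CEY4 and 0 lower (over all 58 members 21 and 14, background 15.4% and 42.4%, median of the list 1.60 against −0.40 over all genes). In CEY1 relative to CEY2 1 was higher and 10 lower (over all members 12 and 21, background 39.7% and 14.8%), and in CEY1 relative to CEY4 8 were higher and 0 lower (over all members 12 and 5, background 6.19% and 8.35%). Without CEY1 MYC replicate 1 the lower members in the last comparison numbered 10 of all 58, and without replicate 2 they numbered 2. With total-count scaling the controls gave 32 and 2 for CEY2 relative to CEY4 (background 27.6% and 22.4%), 3 and 33 for CEY1 relative to CEY2 (background 22.2% and 27.2%), and 12 and 5 for CEY1 relative to CEY4 (background 7.3% and 6.9%). The cause of these differences was not tested. The MYC libraries are control IPs, and none of the 12 libraries holds RNA taken without an IP. The CEY2 controls were also the smallest libraries, with 3605114 and 3353523 counts, against 12802412 and 11651770 in the CEY4 controls. In whole worms, fewer cells of a type and less RNA per cell cannot be told apart either.

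**Figure D4:**
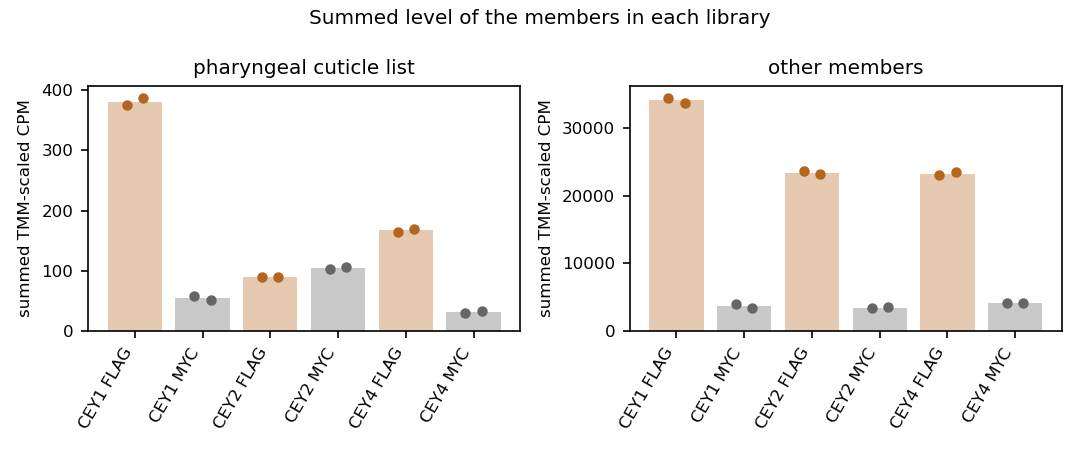
Summed TMM-scaled CPM of the 27 members of the pharyngeal cuticle list (left) and the 44 other members (right) in each library, with bars at the mean of each pair of libraries. In the left panel the CEY2 FLAG libraries lie under their own controls, at 89.8 and 89.6 against 103 and 106 CPM, while in the right panel every FLAG library lies above every MYC library.

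Compared without the controls, the FLAG IPs gave a like order of strains in the counts of members, but calls of single members changed. In the CEY1 FLAG libraries 16 of the 19 cuticle members were higher than in those of CEY2 and 1 was lower (over all 58 members 44 and 6, background 29.9% and 31.2%). Against the CEY4 FLAG libraries 16 were higher and 0 lower (over all members 40 and 5, background 23.6% and 25.4%), although the enrichments of CEY1 and CEY4 differed for 6 of the 19. In CEY2 relative to CEY4 3 were higher and 11 lower (over all members 14 and 27, background 27.6% and 27.3%). The 3 that were higher were abu-12, abu-13 and abu-14. For abu-12 and abu-14 the difference of enrichment had been called in the other direction, as for pqn-32 among the other members. Of the interaction calls for CEY2 relative to CEY4, 29 were kept, 10 lost and 3 turned. For CEY1 relative to CEY4, 29 were kept, 2 lost and 1 turned (pqn-15), and for CEY1 relative to CEY2, 38, 4 and 0. This comparison of FLAG libraries was chosen after the data were seen.

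The genes abu-12, abu-13 and pqn-32 were among the members whose controls were highest with CEY2, and they are named for that pattern after their values were seen. In the MYC libraries abu-12 stood at 14.0 and 14.8 CPM with CEY2, 3.49 and 3.41 CPM with CEY1, and 1.76 and 2.03 CPM with CEY4. For abu-13 the values were 13.4 and 16.4 CPM, 4.33 and 3.13 CPM, and 0.934 and 1.58 CPM, and for pqn-32 23.4 and 27.2 CPM, 8.38 and 7.78 CPM, and 3.37 and 3.32 CPM. The 3 pairs of controls did not overlap for any of these genes, in the same order of strains. The controls of abu-14 and pqn-54 had this order without overlap too, so it is not particular to the 3 genes. In the FLAG libraries abu-13 followed that order too, with 8.61 and 9.65 CPM in CEY2, 2.43 and 2.90 CPM in CEY1, and 0.879 and 1.20 CPM in CEY4, and its enrichment was not called with CEY1 (−0.46 ± 0.29, edgeR adjusted p = 0.153) or CEY4 (−0.26 ± 0.35, adjusted p = 0.512), though both were called lower with total-count scaling (−1.95 and −1.67). In contrast, pqn-32 was highest with CEY1 in the FLAG libraries, at 38.2 and 37.7 CPM, against 22.3 and 20.3 CPM with CEY2 and 8.14 and 8.69 CPM with CEY4.

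Markers of other tissues moved with the strains too. Of 20 germline and oocyte markers 20 were higher with CEY2, 18 with CEY1 and 18 with CEY4 (medians 2.47, 1.48 and 1.30), and 0, 1 and 0 were lower. With total-count scaling 15 were higher and 2 lower with CEY2, 10 and 10 with CEY1 (median −0.0058), and 9 and 10 with CEY4 (median −0.12). For this list and the next, the background was 32.3% higher and 34.4% lower with CEY1, 34.9% and 34.1% with CEY2, and 31.5% and 37% with CEY4. With total-count scaling it was 10.8% and 71.4%, 13.2% and 71.7%, and 9.25% and 79.7%. The germline markers are given first. Their summed level was 61659 to 63499 CPM in the CEY2 FLAG libraries, 50255 to 51997 CPM with CEY1 and 43295 to 43760 CPM with CEY4. In the controls it was 6650.1 to 6873 CPM, 9172 to 10151 CPM and 10178 to 10293 CPM. Of 17 tested genes of the pharynx other than the cuticle list, such as the pharyngeal myosins myo-1 and myo-2, 10 rose and 3 fell with CEY1 (median 0.65), 3 and 8 with CEY2 (median −0.63), and 8 and 3 with CEY4 (median 0.48). With total-count scaling these were 2 and 10, 1 and 15, and 4 and 8. With TMM the 17 values ran from −3.60 to 3.04 with CEY1, from −3.29 to 2.19 with CEY2 and from −3.34 to 2.50 with CEY4. From these, myo-2 and chs-2 are named without a fixed rule. For myo-2 the log2 fold changes were 0.65 ± 0.06, −0.26 ± 0.06 and 2.18 ± 0.06, and for chs-2, the chitin synthase of the pharynx, 0.46 ± 0.20, 1.59 ± 0.18 and 1.18 ± 0.15. The CEY2 value of chs-2 goes against the median of the list. The summed level of the 19 pharynx genes in the table was 796 to 815 CPM against 350.0 to 359.7 CPM with CEY1, 509.95 to 528 CPM against 423 to 427 CPM with CEY2, and 2072 to 2127 CPM against 453 to 462 CPM with CEY4, with idpp-3 at 0 in the CEY1 and CEY2 controls and in the CEY4 FLAG libraries. In the FLAG libraries the summed level of these genes was highest with CEY4, and that of the cuticle list with CEY1. A few abundant genes can carry such a sum. By median enrichment both lists had the order CEY1, CEY4 and CEY2 (0.65, 0.48 and −0.63 against 2.93, 2.44 and −0.19 for the cuticle list).

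Body wall muscle markers gave 8 higher and 0 lower of 10 with CEY1, 0 and 8 with CEY2, and 8 and 2 with CEY4, with summed levels of 18671 to 18883, 4307 to 4317 and 17155 to 17564 CPM in the FLAG libraries and between 5765 and 6519.7 CPM in the controls. Intestine markers gave 7 and 2 of 10, 3 and 7, and 5 and 2, with summed levels of 73523 to 77666, 25726 to 26581 and 104746 to 107566 CPM against 15838 to 18269 CPM in the controls. Neuronal markers gave 6 and 1 of 10, 1 and 6, and 6 and 3, with 311 to 319.5, 148 to 149 and 292 to 303 CPM against 138 to 139.7, 177 to 180.4 and 128 CPM in the CEY1, CEY2 and CEY4 controls. Over all genes 32.3% were higher and 34.4% lower with CEY1, 34.9% and 34.1% with CEY2, and 31.5% and 37% with CEY4. With total-count scaling the muscle markers gave 3 and 7 with CEY1, 0 and 10 with CEY2, and 3 and 6 with CEY4. The intestine markers then gave 3 and 5, 0 and 10, and 3 and 7, and the neuronal markers 1 and 7, 0 and 10, and 2 and 7. The background was then 10.8% and 71.4%, 13.2% and 71.7%, and 9.25% and 79.7%. In the CEY2 controls 8 of the 10 neuronal markers were higher than in those of CEY4 and 0 lower. Of the 20 germline markers 0 were higher and 19 lower (2 and 12 with total-count scaling). The background for these controls was 15.4% higher and 42.4% lower (27.6% and 22.4% with total-count scaling). The part of tissue composition in the results for the pqn and abu genes was not tested. The strains differ in the tagged protein and in its promoter (cey-1, cey-2 or dpy-30) at once. Which mRNAs a protein binds and which cells hold it therefore cannot be told apart in differences between strains.

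The abu genes take their name from the unfolded protein response, the pathway by which a cell senses unfolded proteins in the endoplasmic reticulum. Of 17 tested genes of that pathway 10 rose and 6 fell with CEY1 (median 0.65), 11 and 4 with CEY2 (median 0.80) and 14 and 2 with CEY4 (median 0.87). Over all genes 32.3% were higher and 34.4% lower with CEY1, 34.9% and 34.1% with CEY2, and 31.5% and 37% with CEY4. The share of the pathway that was lower with CEY1, 35.3%, is near that of all genes. With total-count scaling the 17 genes gave 0 and 15, 2 and 12, and 0 and 14. The background was then 10.8% and 71.4%, 13.2% and 71.7%, and 9.25% and 79.7%. With TMM the 17 values ran from −1.15 to 1.60 with CEY1, from −0.73 to 2.60 with CEY2 and from −1.05 to 1.59 with CEY4. The genes ire-1, xbp-1, hsp-4 and ced-1 are named from them without a fixed rule, and ire-1 held the largest value with CEY2. The sensor ire-1 had 1.14 ± 0.06, 2.60 ± 0.07 and 1.40 ± 0.06, its target transcription factor gene xbp-1 −0.34 ± 0.06, 0.53 ± 0.06 and 0.41 ± 0.06, and the chaperone gene hsp-4 0.97 ± 0.06, 1.51 ± 0.06 and 1.50 ± 0.06. The gene ced-1, which encodes an engulfment receptor tied to abu expression, had 0.08 ± 0.07 with CEY1 (edgeR adjusted p = 0.301), 2.32 ± 0.07 with CEY2 and 0.59 ± 0.06 with CEY4. Summed levels of the 17 genes were 4818 to 4842, 4439 to 4491 and 6150.3 to 6160.3 CPM in the FLAG libraries and 3216 to 3549 CPM in the controls.

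The genes whose log2 CPM followed that of pqn-20 most closely over the 12 libraries were ZK973.1 (Pearson's r = 0.999), F08F8.9 (0.999), nos-3 (0.999), F41H10.3 (0.998) and C49H3.6 (0.998). The values are a description, since all genes share the libraries and the gap between FLAG and MYC libraries carries most of the variation. The germline regulator nos-3 had log2 fold changes of 4.20, 3.35 and 3.07 in CEY1, CEY2 and CEY4, the same order of strains as for pqn-20.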

How the data were processed

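Per the labels' protocols, bead-bound RNA was recovered with Trizol, and ScriptSeq v2 libraries were prepared from it. The authors deposited raw counts per gene and a table of normalized log2 values, which was not used. The aligner, build, annotation and counting program, and how reads shared by similar genes were counted, were not given in the sources used here. Symbols were matched by gene identifier (18778 of 20182). The tests used edgeR 4.0.16 under R 4.3.3: filterByExpr by group (minimum count 10), TMM scaling, 1 mean per group over all 12 libraries, quasi-likelihood F tests (two-sided), Benjamini-Hochberg adjustment over 15194 genes, and SE derived from the F statistic (common biological coefficient of variation 0.0476). The fit was run on simulated counts with the same mean levels in every library, apart from a set of genes changed in the CEY1 FLAG group. Those counts lack the wide difference between real FLAG and MYC libraries, so the scaling was not tested by them. At the smallest library 1 scaled CPM is 7.15 counts. Log2 CPM used a prior count of 2.

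The members and lists were chosen with earlier results of these data known. Named were, per strain, the 5 called members with the largest change in each direction at 10 CPM or more, 3 per difference of enrichment, 9 fixed genes, and the 3 members of each group with the highest control mean. Alternatives were total-count scaling, DESeq2 size factors, no filter, DESeq2 1.42.0, a replicate block and leaving out each library. A split by protein cysteine content and a sum of near-identical proteins were planned and not run, because no protein sequences were used. Neighbouring members were summed, which is not a test of similar sequence. Among the tested members this joined only abu-6, abu-7 and abu-15. Reads shared between similar members that are not neighbours were not examined.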

Additional observations from a re-analysis of the deposited data

Results flagged for a closer look

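The enrichment of the pqn and abu genes differed between strains by the interaction test of edgeR. It was larger with CEY1 than with CEY2 for 37 members and smaller for 5 (background over all genes 18.4% and 31.4%), larger with CEY1 than with CEY4 for 28 and smaller for 4 (background 18.1% and 18.6%), and larger with CEY2 than with CEY4 for 12 and smaller for 30 (background 32.3% and 14.7%). The members named for these tests, among those that reached 10 CPM, were, for CEY1 relative to CEY2, abu-11 (4.33), pqn-94 (4.29), pqn-35 (4.25), pqn-52 (−2.22), pqn-51 (−0.81) and pqe-1 (−0.63). For CEY1 relative to CEY4 they were pqn-94 (3.20), pqn-70 (2.24), pqn-35 (2.00), pqn-25 (−0.84), pqn-74 (−0.82) and pqn-52 (−0.31). For CEY2 relative to CEY4 they were pqn-52 (1.90), pqn-27 (1.44), pqn-82 (1.16), pqn-31 (−3.89), pqn-54 (−3.49) and pqn-36 (−3.22). In pqn-74 the FLAG libraries of CEY1 and CEY4 alone differed by 0.0655 (edgeR adjusted p = 0.634), while its controls stood at 10.9 and 9.58 CPM in CEY1 and 5.60 and 5.35 CPM in CEY4.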

How the results depend on the processing

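The scaling moved the counts of members most. With total-count scaling members lower with CEY1 were 10 in place of 4 (cuticle list 1 in place of 0, others 9 in place of 4). With CEY2 11 were higher and 40 lower in place of 20 and 12 (list 0 and 16, others 11 and 24), and with CEY4 25 and 20 in place of 43 and 6 (list 11 and 2, others 14 and 18). Between the controls CEY1 against CEY2 gave 3 higher and 33 lower in place of 12 and 21, and CEY2 against CEY4 32 and 2 in place of 21 and 14. The counts of members whose enrichment differed between strains stayed within 1.5 times under total-count scaling, and 41 of 42, 29 of 32 and 38 of 42 of those members kept their call. DESeq2 size factors gave 0 higher and 8 lower on the list with CEY2, 4 higher between the CEY1 and CEY2 controls and 4 lower between the CEY2 and CEY4 controls. DESeq2's test gave 0 higher on the list with CEY2, 3 lower with CEY4 (list 0, others 3), 2 smaller for CEY1 relative to CEY4, and 3 and 3 in the same control counts. Without the filter the list had 0 lower with CEY4. The cause was not tested.

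Among the members named, values that turned sign with total-count scaling were, with CEY1, pqn-72 (−0.21), pqn-27 (−0.25) and pqn-51 (−0.41). With CEY2 they were abu-8 (−0.93), pqn-63 (−1.10), pqn-54 (−1.31), pqn-27 (−0.53), pqn-70 (−0.43), pqn-25 (−1.63), abu-6 (−0.78) and abu-14 (−1.71). With CEY4 they were pqn-72 (−1.24), pqn-92 (−0.18), pqn-18 (−1.01), pqn-35 (−0.23), pqn-51 (−0.24), pqn-70 (−0.93) and pqn-82 (−0.50). Of the members not named, pqn-53 and pqn-83 with CEY2 and pqn-42, pqn-53 and pqn-83 with CEY4 were called in the other direction. With CEY2 pqn-25 and abu-14 were also −0.24 and −0.33 with DESeq2 size factors (−0.24 and −0.33 with DESeq2's test), pqn-52 with CEY4 was 0.0066 without the filter, and pqn-74 in CEY1 relative to CEY4 was 0.0655 in the FLAG IPs alone.

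Leaving out 1 library at a time gave 45 to 48 higher and 2 to 4 lower with CEY1 (list 18 and 0, others 27 to 30 and 2 to 4), 19 to 21 and 11 to 12 with CEY2 (list 1 to 2 and 3 to 4, others 18 to 19 and 7 to 8), and 41 to 44 and 3 to 6 with CEY4 (list 16 to 18 and 0 to 1, others 25 to 26 and 3 to 5). The differences ran from 35 to 38 and 4 to 5 (CEY1 and CEY2), 23 to 28 and 2 to 4 (CEY1 and CEY4), and 11 to 12 and 28 to 32 (CEY2 and CEY4). The controls ran from 10 to 15 and 15 to 22, 11 to 13 and 2 to 10, and 17 to 21 and 12 to 14. Values that turned sign ranged, over these fits, from −0.59 to 0.48 for abu-11 and from −0.46 to 4.01 for abu-6 with CEY2 (−0.04 without CEY2 MYC replicate 2), and with CEY4 from −0.104 to 0.0199 for pqn-52, from −0.0946 to 0.539 for pqn-72 and from −0.593 to 0.162 for abu-13.

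With the replicate number as a replicate block 46 and 4 members were called with CEY1, 20 and 12 with CEY2 and 43 and 7 with CEY4. Replicates of the same number did not deviate together (r over genes between −0.0264 and 0.0331). Counting error in each library can hide a shared origin, so these values cannot tell whether such replicates came from the same culture. With neighbouring members summed, abu-6, abu-7 and abu-15 counted as 1 gene, and of 56 members 44 rose and 4 fell in CEY1, 21 and 12 in CEY2, and 41 and 6 in CEY4. A split by cysteine content and a sum of near-identical proteins, both planned, were not run, as no protein sequences were at hand.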
